A study of Drosophila melanogaster with 16 samples.

Results

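The genes described here are the ecdysone receptor gene *EcR* and the early response genes of the steroid hormone ecdysone, taken by symbol from a list of 10 genes. Of these, 9 were found among the 10459 genes in the expression table: *EcR*, *Eip74EF*, *Eip75B*, *br*, *Eip78C*, *Hr4*, *ftz-f1*, *Hr39* and *Eip71CD*. The gene of the receptor's partner, *usp*, was not analysed here. Polyadenylated RNA of whole larvae of the third instar was sequenced in 4 groups of 4 libraries: control fed, control fasted, *ERK7* mutant fed and *ERK7* mutant fasted. According to the methods of the study the larvae were male. The mutants carry *ERK7*1, a single CRISPR/Cas9 line with a small deletion that shifts the reading frame and is a likely null, and the control is a line from the same screen without a mutation in the gene, with both lines backcrossed into the w1118 background. By the labels, eggs were laid for 3 h, newly hatched larvae were moved to standard food 24 h later, and 48 h after that they went for 6 h onto either agarose in buffer (fasted) or fresh food (fed). The methods place the transfer at a later age than the labels do, so their age is given here only as the third instar. The labels do not say whether the 4 libraries of a group came from separate cultures, so the p-values measure the spread between these libraries.

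Ecdysone is made in the prothoracic gland and converted in other tissues to its active form, which binds a heterodimer of the nuclear receptors EcR and Usp. The bound receptor switches on a small set of early genes, most of which encode transcription factors that in turn regulate the later genes of molting and metamorphosis. Pulses of the hormone set the larval molts, the changes within the last instar and the start of pupariation.

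Read depth was even, with 16482553 to 20057340 reads on genes in control fed, 17142412 to 18314699 in control fasted, 19206955 to 20601418 in mutant fed and 18648445 to 19594002 in mutant fasted libraries. Values are reads scaled to the effective library size (RPM), and 1 read was worth between 0.0472 and 0.0642 RPM. Across all genes, 44.4% of the variance lay on a first component that separated fed from fasted larvae and 36.2% on a second that separated the genotypes. On the second, control fasted replicate 1 lay between the genotypes, at -2.46. The other controls lay at 16.7 or above and the mutants at -20.6 or below. Where leaving this library out changed a call of the 9 genes, the value without it is given, and so are some values that moved. *Erk7* transcript averaged 2.19 RPM in control fed and 8.23 RPM in mutant fed larvae, which does not check the labels, because a small frameshift deletion need not lower the transcript. A fold change (log2) is a difference of mean log2(RPM + 1) between groups, which understates changes of genes near or below 1 RPM, and calls rest on limma's adjusted p below 0.05, with all 10459 genes in the adjustment.

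In control larvae 8 of the 9 genes changed with fasting, beside 69.7% of all genes, with *Eip74EF*, *Eip75B*, *Eip78C*, *Hr4*, *ftz-f1*, *Eip71CD* and *EcR* higher and *br* lower. In *ERK7* mutants *Eip78C*, *Hr4* and *ftz-f1* rose, *br* and *Hr39* fell, and *Eip74EF*, *Eip75B*, *EcR* and *Eip71CD* did not pass the test. The fasting responses of *EcR*, *Eip74EF*, *Eip75B*, *Hr4* and *br* differed between the genotypes, beside 31.9% of all genes.

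**Figure D1:**
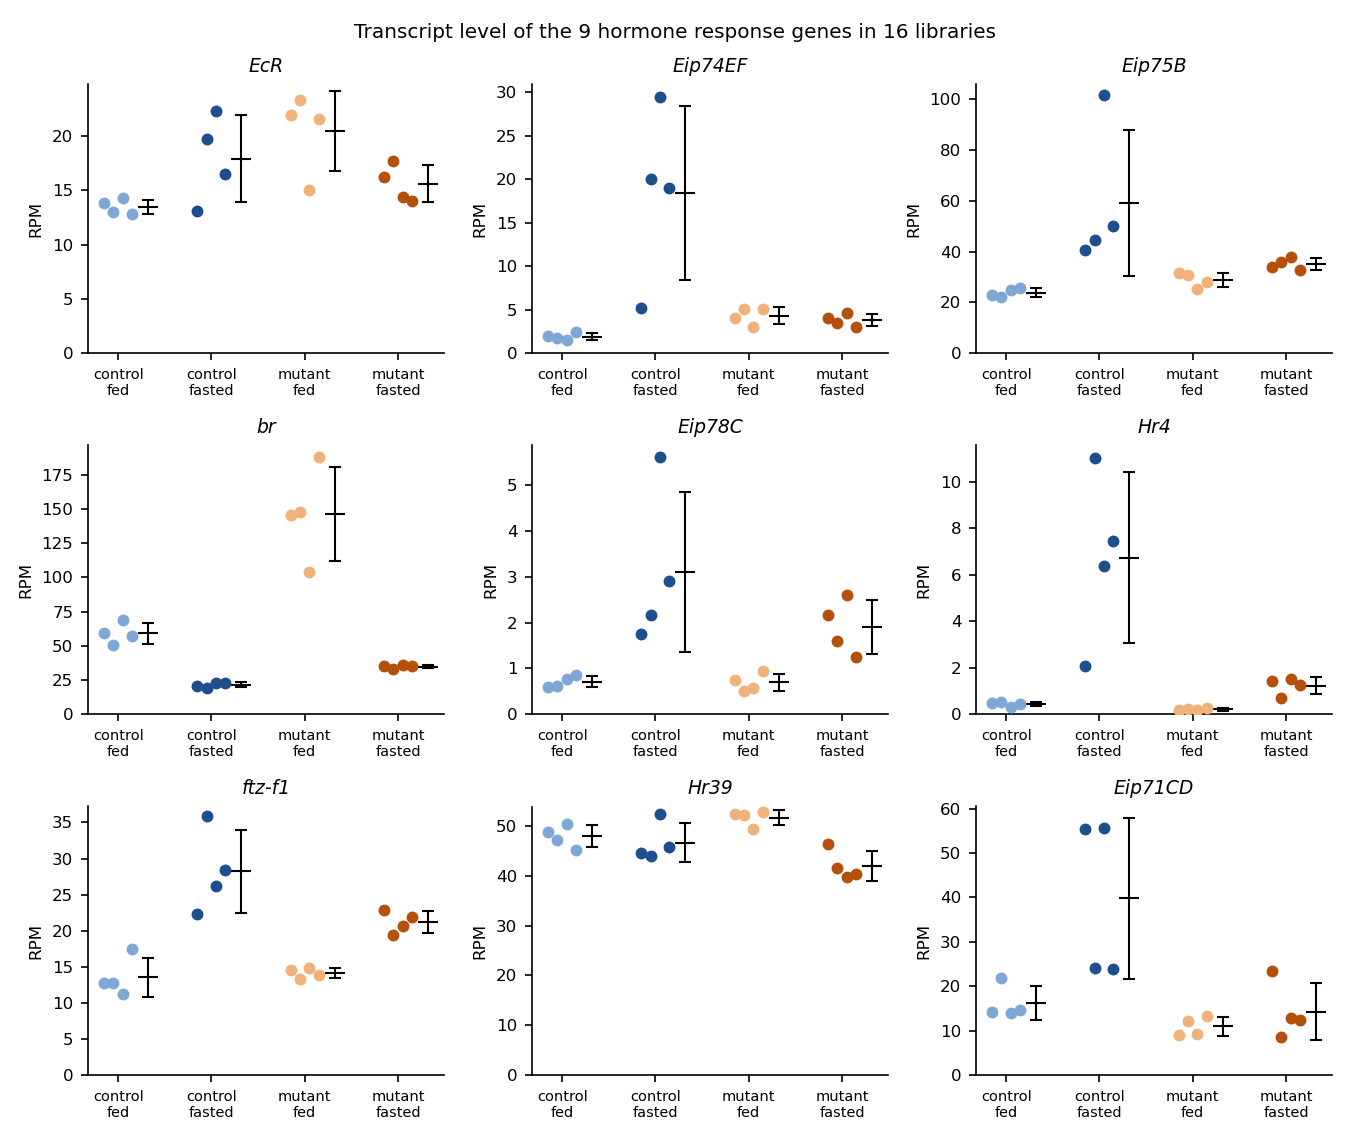
Transcript level in RPM (linear vertical axes from 0) of the 9 genes in each of the 16 libraries, with 1 point per library in order of replicate number and the group mean with its SD beside the points. *Eip74EF* and *Hr4* were high in control fasted larvae, whereas *br* was highest in mutant fed larvae, with a mean of 146 RPM.

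*EcR* (FBgn0000546, 2R:6087873-6169087, minus strand) encodes the hormone-binding receptor itself. All positions are on release 6 of the fly genome assembly. Control fed libraries held 13.8, 13.0, 14.3 and 12.8 RPM and control fasted libraries 13.1, 19.8, 22.3 and 16.5 RPM. Mutant fed libraries held 21.96, 23.3, 15.0 and 21.6 RPM and mutant fasted libraries 16.2, 17.7, 14.4 and 14.0 RPM. The fed mutants thus lay above every fed control, while groups next to each other in mean level overlapped. *EcR* was 1.52-fold higher in mutant fed than in control fed larvae (log2 0.55, SE 0.149, adjusted p = 0.00628). Fasting raised it in controls by 0.36 on the log2 scale (SE 0.149, adjusted p = 0.0418), although the groups overlapped and the call was lost in 7 of 8 fits that left out 1 library. Only the fit without control fasted replicate 1 kept the call (log2 0.50, adjusted p = 0.00544). In mutants the fasting difference had the opposite sign, at -0.36 (adjusted p = 0.0597, and 0.0439 in edgeR on the recovered reads), and the responses differed by -0.72 (95% interval -1.17 to -0.27, adjusted p = 0.0182). Without control fasted replicate 1 the responses differed by -0.85 (adjusted p = 0.00299). Between the fasted groups the difference was -0.17 (adjusted p = 0.373).

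*Eip74EF* (FBgn0000567, 3L:17558672-17619325, minus strand) encodes ETS-domain transcription factors of the early puff at 74EF. It stood at 1.95, 1.71, 1.48 and 2.38 RPM in control fed larvae. After fasting, controls held 5.13, 20.0, 29.5 and 19.0 RPM, where replicate 1 lay far below the other fasted controls but above all fed controls. In mutants the level was 4.08, 5.05, 3.05 and 5.06 RPM fed and 4.01, 3.49, 4.63 and 2.95 RPM fasted, so that the diets overlapped. The mean in controls went from 1.88 ± 0.384 RPM to 18.4 ± 10.0 RPM (SD, n = 4), a 9.81-fold rise (log2 2.55, SE 0.350, adjusted p = 1.3e-05). This was larger in size than the change of 98.5% of all genes. The mutant difference was -0.15 (95% interval -0.90 to 0.60, adjusted p = 0.772), and the 2 responses differed by -2.70 (SE 0.495, adjusted p = 0.000938). Without control fasted replicate 1 the control rise was 3.03 and the difference of the responses -3.18. Fasted mutants held 4.88-fold less transcript than fasted controls (log2 -1.82, adjusted p = 0.0013, and log2 -2.31 without that replicate). In fed larvae the order was reversed, with 2.30-fold more in mutants and no overlap (log2 0.87, adjusted p = 0.0486). That call was lost in 7 of 8 fits without 1 library and under quantile normalization (log2 0.46, adjusted p = 0.293). It was kept when only the fed groups were fitted. The SE in the main fit is shared by all 4 groups. The SD of log2(RPM + 1) was 1.00 in control fasted, 0.190 in control fed and 0.275 in mutant fed larvae.

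*Eip75B* (FBgn0000568, 3L:17950953-18064696, minus strand) encodes nuclear receptors that bind heme and can block the activity of the receptor Hr3. Its level was 22.9, 21.9, 24.98 and 25.5 RPM in control fed and 40.4, 44.4, 102 and 49.9 RPM in control fasted libraries. Mutants held 31.6, 30.6, 25.2 and 28.0 RPM fed and 34.1, 36.1, 37.8 and 32.7 RPM fasted. Fasted controls were the highest group without overlap, and replicate 3 stood above its own group. The rise in controls was 2.49-fold (log2 1.18, SE 0.206, adjusted p = 0.000135). It was 0.89 on the log2 scale without replicate 3 (adjusted p = 1.5e-06). In mutants the fasted libraries all lay above the fed ones, but the difference of 0.28 was not called (adjusted p = 0.289). Fitted on the mutant groups alone, it was called (adjusted p = 0.0239). The responses differed by -0.90 (adjusted p = 0.0295), and by -0.61 without control fasted replicate 3 (adjusted p = 0.0029), while the call was lost in 4 of 16 fits without 1 of the other libraries. The SD of log2(RPM + 1) was 0.597 in control fasted and 0.0891 to 0.141 in the other groups, which the shared SE does not allow for. Fasted mutants were 1.68-fold lower than fasted controls (log2 -0.63, adjusted p = 0.0227), a log2 difference of -0.34 without that library. This call was lost when only the fasted groups were fitted (adjusted p = 0.0911) and without mutant fasted replicate 4 (adjusted p = 0.0544).

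*br* (FBgn0283451, X:1575132-1664869, plus strand) encodes the Broad family of BTB zinc finger transcription factors, which larvae need to enter metamorphosis. It was the only one of the 9 that fell with fasting in both genotypes and passed the test in each. Control fed libraries held 59.3, 50.7, 68.9 and 57.2 RPM and control fasted libraries 20.2, 19.3, 22.99 and 22.97 RPM. Mutant fed libraries held 146, 148, 104 and 188 RPM and mutant fasted libraries 34.8, 33.0, 35.6 and 35.1 RPM. No neighbouring groups overlapped, and the order ran from control fasted through mutant fasted and control fed to mutant fed. Fasting lowered it by a factor of 2.76 in controls (log2 -1.42, SE 0.139, adjusted p = 3.65e-07) and of 4.23 in mutants (log2 -2.02, SE 0.139, adjusted p = 3.63e-08). The fall was thus larger in mutants, by -0.60 on the log2 scale (adjusted p = 0.032), and this call was lost in 7 of 16 fits without 1 library. Mutants exceeded controls 2.48-fold when fed (log2 1.27, adjusted p = 4.37e-06) and 1.62-fold when fasted (log2 0.67, adjusted p = 0.00205). The summed level of 4 of 6 fat body markers, *Lsp1alpha*, *Lsp1beta*, *Rfabg* and *FASN1*, followed the same order of groups. It was 10349 to 11180 RPM in control fasted, 15365 to 17990 in mutant fasted, 27260 to 35738 in control fed and 62980 to 74522 in mutant fed libraries. The control fasted sum was mostly *Rfabg* (mean 10469 RPM), and *Lsp1alpha* was near the floor there (mean 0.883 RPM). *Lsp1alpha* ran from 6.81 to 540 RPM in control fed libraries and overlapped mutant fasted libraries (58.9 to 290 RPM). By group means *FASN1* alone did not follow the order of the sum, with 6454 RPM in control fed and 5952 RPM in mutant fed larvae. The sum of the 6 epidermis and cuticle markers was also highest in mutant fed libraries, at 146 to 236 RPM. It was 55.6 to 69.4 RPM in control fed, 22.6 to 44.2 in control fasted and 34.0 to 40.0 in mutant fasted libraries. *Lcp3* was at or near 0 in the fasted groups. The mutant fed sum was mostly *Lcp2* (mean 131 RPM, against 15.1 RPM in control fed). *TwdlT* (1.43 against 2.83 RPM) and *Cpr49Ae* (8.41 against 13.5 RPM) were lower in mutant fed than control fed larvae. Both were highest in control fasted larvae. Between the fed genotypes 3 of the 6 were called higher and 1 lower, beside 51.5% of all genes called. The part of these markers in the *br* result was not tested, and in whole larvae fewer cells of a type cannot be told apart from less RNA per cell.

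*Eip78C* (FBgn0004865, 3L:21226609-21266503, plus strand) encodes a nuclear receptor related to the product of *Eip75B*. It was weakly expressed, at 0.595, 0.621, 0.770 and 0.845 RPM in control fed libraries (11 to 16 reads). Fasted controls held 1.74, 2.16, 5.61 and 2.90 RPM. Mutants held 0.747, 0.505, 0.569 and 0.935 RPM fed and 2.17, 1.60, 2.60 and 1.26 RPM fasted. Every fasted library lay above every fed library of either genotype, and the fasted groups overlapped each other. *Eip78C* rose in controls (log2 1.18, SE 0.216, adjusted p = 0.000204; 4.39-fold in mean RPM) and in mutants (log2 0.77, SE 0.216, adjusted p = 0.00853; 2.77-fold). The responses were not shown to differ (difference -0.42, 95% interval -1.07 to 0.24, adjusted p = 0.308). Between the fasted genotypes the difference was -0.44 (adjusted p = 0.112), and it was called without control fasted replicate 1 (log2 -0.60, adjusted p = 0.0293). The fed genotypes differed by -0.020 (95% interval -0.48 to 0.44).

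*Hr4* (FBgn0264562, X:1941940-2007956, plus strand) encodes a nuclear receptor of the hormone cascade that also restrains ecdysone synthesis in the prothoracic gland. In control fed libraries 9, 10, 5 and 8 reads were counted (0.487, 0.517, 0.321 and 0.422 RPM). After fasting, controls held 39, 209, 108 and 146 reads (2.06, 11.0, 6.38 and 7.44 RPM), again with the lowest value in replicate 1. Mutants held 3, 4, 3 and 5 reads fed (0.172, 0.202, 0.155 and 0.275 RPM) and 30, 14, 30 and 26 reads fasted (1.42, 0.698, 1.53 and 1.26 RPM). No groups overlapped, in the order mutant fed, control fed, mutant fasted, control fasted. The rise with fasting was 2.27 on the log2 scale in controls (SE 0.287, adjusted p = 5.62e-06) and 0.87 in mutants (SE 0.287, adjusted p = 0.0204), and on mean RPM it was 15.4-fold and 6.09-fold. From summed reads the control ratio was 15.2 (95% interval 10.7 to 22.5) and the mutant ratio 6.11 (3.53 to 11.3), intervals that cover counting error only. The responses differed by -1.40 (adjusted p = 0.0178), and by -1.79 without control fasted replicate 1 (adjusted p = 2.56e-05). On the recovered reads, which need no added 1 RPM, that difference was -1.34 in edgeR's quasi-likelihood test and was not called (adjusted p = 0.18). Fasted mutants held 5.49-fold less than fasted controls (log2 -1.65, adjusted p = 0.000667, and log2 -2.05 without control fasted replicate 1).

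*ftz-f1* (FBgn0001078, 3L:18750607-18801309, minus strand) encodes a nuclear receptor known as the competence factor of the prepupal hormone response. Its exons share 2521 bases with *lncRNA:CR45939* on the same strand, so reads there could have been assigned to neither or either gene. Control fed libraries held 12.8, 12.7, 11.2 and 17.5 RPM and control fasted libraries 22.4, 35.9, 26.2 and 28.4 RPM. Mutants held 14.6, 13.3, 14.8 and 13.9 RPM fed and 22.8, 19.4, 20.7 and 21.9 RPM fasted, so that fasted libraries were above fed ones in both genotypes. The gene rose 2.08-fold in controls (log2 1.00, SE 0.133, adjusted p = 8.89e-06) and 1.499-fold in mutants (log2 0.55, SE 0.133, adjusted p = 0.00303). The responses differed by -0.45, which was not called (95% interval -0.85 to -0.05, adjusted p = 0.0778). It was called without control fasted replicate 1 (log2 -0.55, adjusted p = 0.0267) and without control fed replicate 4 (log2 -0.57, adjusted p = 0.0183). Fasted mutants were lower than fasted controls by a log2 difference of -0.38 (adjusted p = 0.0322) with overlap, and that call was lost in 5 of 8 fits without 1 library.

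*Hr39* (FBgn0261239, 2L:21237250-21259675, plus strand), the paralog of *ftz-f1*, varied little between the groups. It stood at 48.9, 47.2, 50.5 and 45.3 RPM in control fed, 44.6, 44.0, 52.4 and 45.8 in control fasted, 52.4, 52.3, 49.5 and 52.8 in mutant fed and 46.3, 41.7, 39.7 and 40.4 in mutant fasted libraries. Each group overlapped the next in order of mean level. Fasting lowered it in mutants by 0.30 on the log2 scale (log2 -0.30, SE 0.0669, adjusted p = 0.00195), whereas the control difference was -0.040 (95% interval -0.18 to 0.10, adjusted p = 0.598). The difference of the responses was -0.25 and lay at the threshold (adjusted p = 0.0529). It was called under 5 other settings, among them quantile normalization (adjusted p = 0.0126) and edgeR on the recovered reads (adjusted p = 0.041), and in 3 of 16 fits without 1 library, including that without control fasted replicate 1 (log2 -0.28, adjusted p = 0.0492).

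*Eip71CD* (FBgn0000565, 3L:15511052-15513202, plus strand; *MsrA* in the current annotation) encodes methionine sulfoxide reductase A, an enzyme that repairs oxidized methionine, and unlike the others is no transcription factor. Control fed libraries held 14.2, 21.9, 14.0 and 14.7 RPM. Control fasted libraries fell into 55.3 and 55.7 RPM in replicates 1 and 3 and 24.2 and 23.9 RPM in replicates 2 and 4, all above the fed controls. Mutants held 9.03, 12.1, 9.20 and 13.4 RPM fed and 23.3, 8.58, 12.8 and 12.4 RPM fasted, with overlap. The gene rose 2.46-fold in controls (log2 1.15, SE 0.312, adjusted p = 0.00445; log2 0.96 without replicate 1, adjusted p = 0.016) and differed by 0.29 in mutants (95% interval -0.37 to 0.96, adjusted p = 0.481). Fasted mutants were 2.78-fold lower than fasted controls (log2 -1.38, adjusted p = 0.00348). The difference of the responses was -0.86 (95% interval -1.81 to 0.08, adjusted p = 0.145).

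The fasting response of the 9 genes in control larvae stands beside a broad response of the transcriptome. Of the 9 genes 7 were higher and 1 was lower, beside 69.7% of all tested genes called (37.5% higher and 32.2% lower). Groups did not overlap for 7 of the 9 and for 57.7% of all genes. The median change of the 9 was 1.15 on the log2 scale, against 0.099 over all genes, and their median absolute change was 1.18 against 0.466. In mutants 3 were higher and 2 lower, beside 48.7% of all genes (23.7% higher and 25% lower), and groups did not overlap for 6 of the 9 and for 45.8% of all genes. There the median change was 0.28 against 0.0017 over all genes. The 9 genes were chosen with earlier results of these data known, so the medians here and below describe them and test nothing.

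**Figure D2:**
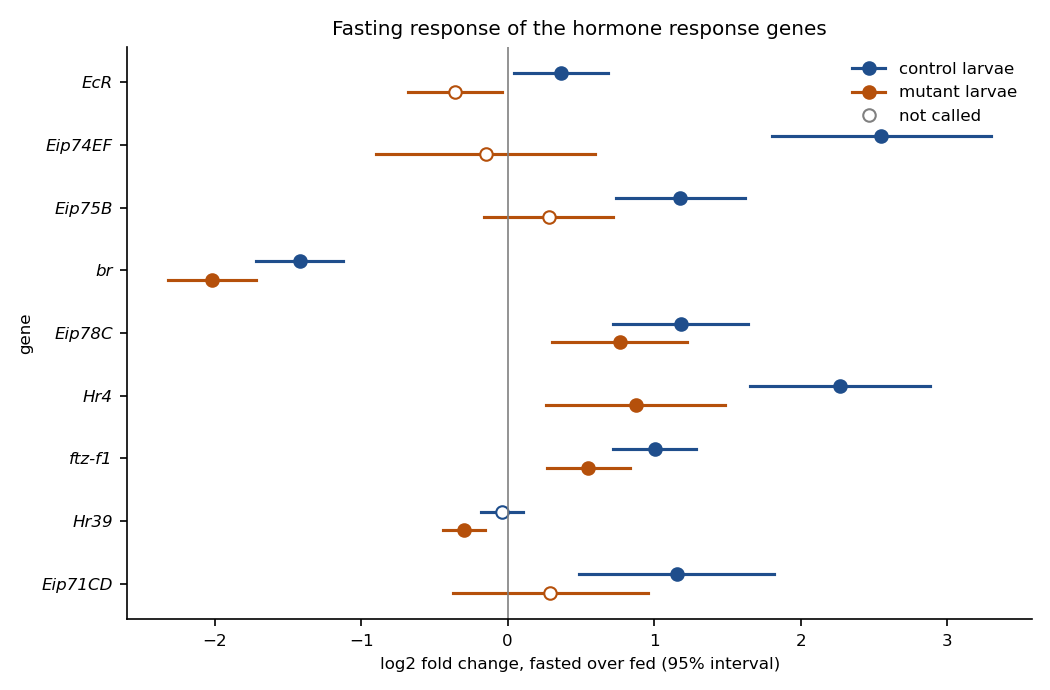
Fasting response of the 9 genes as the log2 fold change of fasted over fed larvae (horizontal axis) in controls and mutants, with 95% intervals from limma and open circles for changes that were not called. *Eip74EF* changed by 2.55 in controls and -0.15 in mutants, while *br* lay below 0 in both.

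The genotypes were compared within each diet. In fed larvae 3 of the 9 genes, *br*, *Eip74EF* and *EcR*, were higher in mutants, beside 51.5% of all genes called (25.6% higher and 26% lower). Groups did not overlap for 5 of the 9, against 51.2% of all genes. The 2 that were lower without overlap were *Hr4* (log2 -0.26, adjusted p = 0.476) and *Eip71CD* (log2 -0.52, adjusted p = 0.178). Fitted on the fed groups alone, both were called by limma (adjusted p = 0.00982 for *Hr4* and 0.0276 for *Eip71CD*). *Hr4* rests there on 5 to 10 reads per control library and 3 to 5 per mutant library. The median difference of the 9 was 0.11, against -0.015 over all genes. In fasted larvae *Eip74EF*, *Hr4*, *Eip71CD*, *Eip75B* and *ftz-f1* were lower and *br* was higher in mutants, which made 6 of 9 beside 44.7% of all genes (23.8% higher and 20.9% lower). Groups did not overlap for 5 of the 9, against 33.3% of all genes, and the median difference was -0.44 against 0.0035. These comparisons share libraries with the fasting comparisons, so the counts are not independent of one another.

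**Figure D3:**
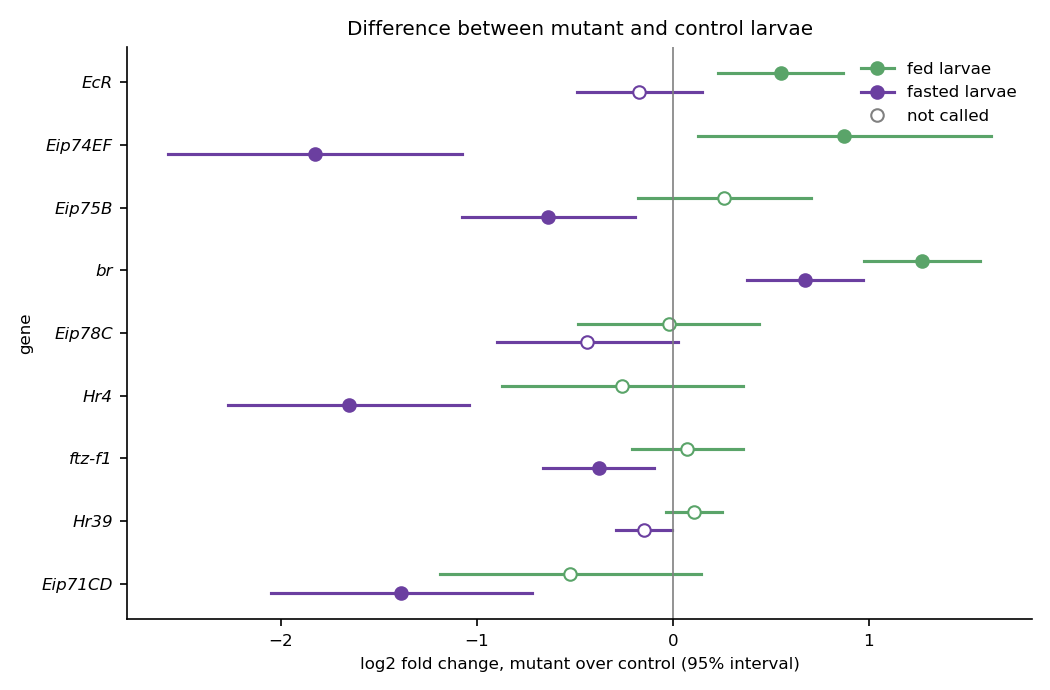
Difference between mutant and control larvae for the 9 genes as log2 fold change (horizontal axis) in fed and in fasted larvae, with 95% intervals from limma and open circles for differences that were not called. *Eip74EF* lay at 0.87 in fed and -1.82 in fasted larvae, and *br* above 0 in both diets.

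The interaction of genotype and fasting compares the fasting responses directly. Its sign was negative for all 9 genes and 5 were called, each lower in mutants, beside 31.9% of all genes called (18.2% higher and 13.7% lower). The 9 values rest on the same 16 libraries, so their signs are not independent. The share of negative signs over all genes was not counted. The median was -0.72 for the 9 and -0.035 over all genes. For *Eip74EF*, *Eip75B* and *Hr4* the negative sign came with a smaller rise in mutants or none, for *EcR* with differences of opposite sign, and for *br* with a larger fall. The test uses 1 spread shared by the 4 groups. In control fasted larvae the SD of log2(RPM + 1) was 1.00 for *Eip74EF*, 0.838 for *Hr4* and 0.597 for *Eip75B*. In the other groups it was at most 0.275, 0.258 and 0.141, and the p-values do not allow for this difference. At a threshold of 0.01 *Eip74EF* alone was called, and the share of all genes called at that threshold was not counted. Leaving out 1 library gave between 3 calls (without control fed replicate 2 or mutant fed replicate 2) and 7 calls (without control fasted replicate 1). Over all 10459 genes these 3 fits called 2940, 2941 and 3447, against 3338 with all libraries.

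Levels of different genes were compared per kilobase of annotated exon. In control fed larvae *Eip71CD* (12.0 RPM per kb) and *Hr39* (9.62) led, followed by *br* (2.92), *Eip75B* (1.77), *ftz-f1* (1.58) and *EcR* (1.36), and *Eip74EF* (0.201), *Eip78C* (0.120) and *Hr4* (0.0314) were lowest. In mutant fed larvae *br* reached 7.24 RPM per kb. Several of the genes have many transcripts, from 16 for *br* and 9 for *Hr4* to 4 for *Eip78C*, with 9 annotated start sites for *br* and 7 for *Eip75B*. Counts per gene do not tell these isoforms apart, and lengths of the expressed isoforms were not known.

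Control fasted larvae were also the most uneven group for these genes. The median SD of log2(RPM + 1) over the 9 was 0.556 there, compared with 0.101 in control fed, 0.163 in mutant fed and 0.147 in mutant fasted larvae, while over all genes it was 0.147 in control fasted and between 0.120 and 0.137 in the other groups. Replicate 1 was the lowest fasted control for *EcR*, *Eip74EF*, *Eip75B*, *Eip78C*, *Hr4* and *ftz-f1*, and among the highest for *Eip71CD*. Replicate 3 was the highest for *EcR*, *Eip74EF*, *Eip75B* and *Eip78C*, whereas *Hr4* and *ftz-f1* were highest in replicate 2.

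**Figure D4:**
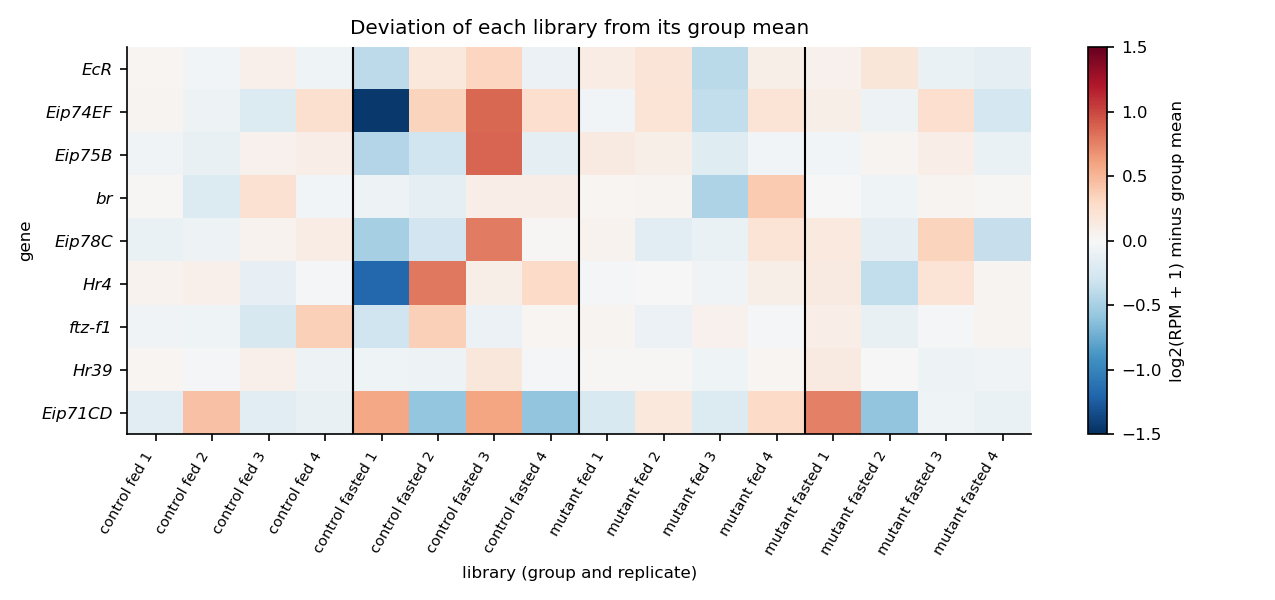
Deviation of each library (columns, by group and replicate) from its group mean for the 9 genes (rows), in units of log2(RPM + 1), with blue for lower and red for higher. The control fasted columns carry the strongest colours, with replicate 1 low for *Eip74EF* and *Hr4* and replicate 3 high for *Eip74EF*, *Eip75B* and *Eip78C*.

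Over the 16 libraries, which form 4 groups and so are not 16 independent points, the profile of each gene was compared with the 5225 genes at or above the median level. *Eip74EF* was most like *Hexo2* (Pearson r = 0.98), *br* most like *CG14258* (0.98), *ftz-f1* most like *PGRP-LC* (0.97) and *Hr4* most like *Exn* (0.97). The closest genes were *Hayan* for *Eip78C* (0.93), *CG6145* for *Eip75B* (0.92), *Cht9* for *Eip71CD* (0.91), *CG10211* for *Hr39* (0.90) and *CG31475* for *EcR* (0.85). Among the 9 themselves *Eip75B* and *Eip78C* were most alike (0.92), followed by *Hr4* and *ftz-f1* (0.90), and *br* and *ftz-f1* were least alike (-0.80).

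Other genes of the hormone response were described as a list of 32 ecdysone-inducible and stage genes, of which 15 were measured. With fasting 7 rose and 2 fell in controls, beside 69.7% of all genes called, and 5 rose and 5 fell in mutants, beside 48.7%, so the control share of 9 in 15 was no higher than that of all genes. The median changes were 0.41 and 0.023. *vri*, a bZIP factor of the circadian clock that also responds to ecdysone, stood at 0.757, 0.362, 0.514 and 0.581 RPM in control fed and at 6.24, 6.96, 7.09 and 6.47 RPM in control fasted libraries. In mutants *vri* was at 1.78, 3.08, 1.65 and 2.80 RPM fed and 4.39, 2.99, 3.77 and 4.88 RPM fasted, so its rise was smaller (difference of the responses -1.71, adjusted p = 3.48e-05). *Ddc*, the dopa decarboxylase of cuticle hardening and pigment, averaged 10.5 RPM in fed and 43.5 RPM in fasted controls, and 6.28 RPM in fed and 11.1 RPM in fasted mutants, where it also rose (log2 0.72, adjusted p = 0.0228; difference of the responses -1.16, adjusted p = 0.0191). *ImpE1*, an ecdysone-inducible gene of imaginal discs, resembled *br* in direction, with a mutant to control ratio of 2.74 in fed larvae and a fall of -1.13 with fasting in mutants (adjusted p = 1.58e-05). The interaction was called for 9 of the 15 genes, each lower in mutants, beside 31.9% of all genes called and 13.7% lower. In fed larvae 6 of the 15 were higher and 1 lower in mutants, beside 51.5% of all genes called, and in fasted larvae 1 was higher and 8 were lower, beside 44.7%.

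**Figure D5:**
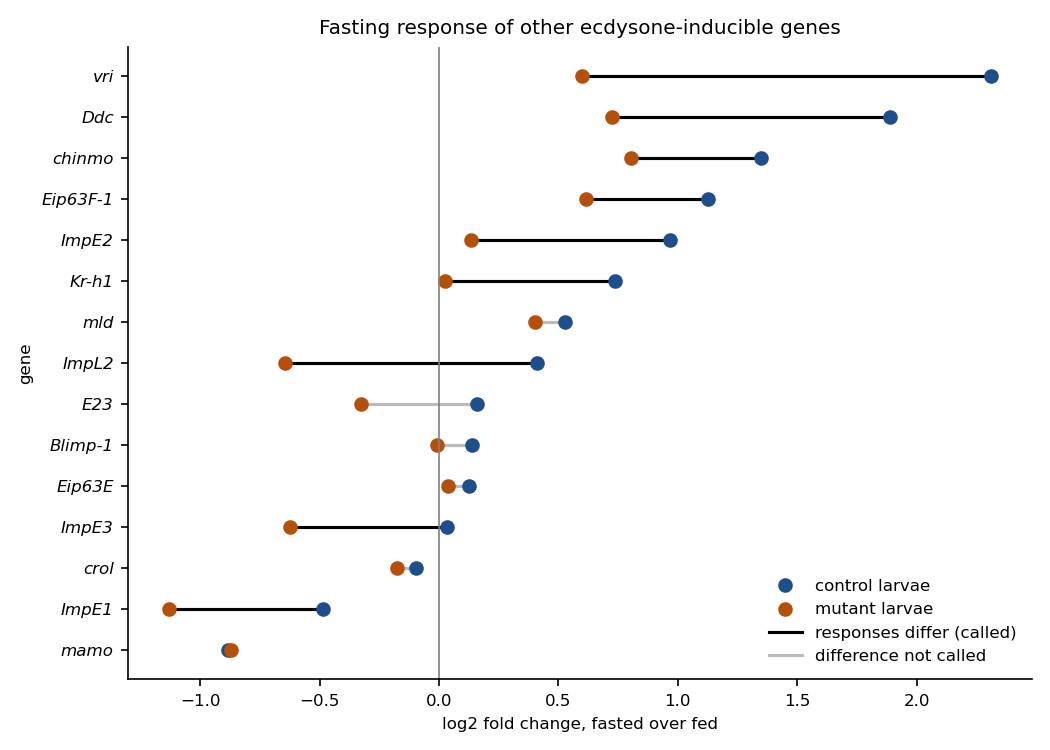
Fasting response, as log2 fold change of fasted over fed larvae (horizontal axis), of the 15 measured genes of the list of other ecdysone-inducible genes in controls and mutants, joined by a black line where the responses differed and a grey line where the difference was not called. *vri* changed by 2.31 in controls and 0.60 in mutants.

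Of 9 measured genes among 14 other nuclear receptors, 3 rose and 1 fell with fasting in controls, a smaller share than the 69.7% of all genes called. The one that fell was *Hr38*, a receptor of the NR4A family that can also pair with Usp (log2 -1.76 in controls, adjusted p = 1.46e-07, and -1.13 in mutants, adjusted p = 3.44e-05). Of 12 genes for hormone entry, receptor cofactors, chaperones and hormone breakdown, 4 rose and 5 fell in controls, beside the same 69.7%. *Hsp83*, the Hsp90 chaperone, fell by -2.87 in controls and -0.78 in mutants. *Cyp18a1*, which inactivates the hormone, rose by 0.99 in controls and 0.67 in mutants, and *Oatp74D*, the hormone importer, was 1.56-fold higher in mutant fed than control fed larvae (adjusted p = 2.48e-06).

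Genes of hormone synthesis were measured for 8 of 13 listed genes, of which 2 rose and 5 fell with fasting in controls, beside 69.7% of all genes called, and 1 rose and 6 fell in mutants, beside 48.7%. In fed larvae 5 of the 8 were higher in mutants, beside 51.5% of all genes called in either direction, and the other 3 did not pass the test. *sro*, an enzyme of the pathway in the prothoracic gland, stood at 0.270, 0.259, 0.321 and 0.422 RPM in control fed and 3.45, 3.13, 2.02 and 3.08 RPM in mutant fed libraries, without overlap (log2 1.56, adjusted p = 1.44e-07). *shd*, which makes the active hormone in peripheral tissues, was 1.70-fold higher in mutant fed than control fed larvae (log2 0.75, adjusted p = 7.71e-06) and 1.85-fold higher in fasted than fed controls (log2 0.87, adjusted p = 4.77e-07). Prothoracic gland markers, of which 4 of 6 were measured, summed to 20.3 to 22.1 RPM in control fed and 10.2 to 11.2 in control fasted libraries. In mutants the sum was 28.0 to 37.8 RPM fed and 13.2 to 15.7 RPM fasted. Of the 4 genes 2 were called higher in mutant fed than control fed larvae, beside 51.5% of all genes called in either direction. The largest was *spok*, with means of 11.9 RPM in control fed and 19.7 RPM in mutant fed larvae, while *phm* stood at 3.36 and 3.26 RPM. The part of these markers in the levels of the receptor and early genes was not tested. The list of 16 tissue outputs, of which 7 were measured, was led by the larval serum protein genes *Lsp1alpha*, *Lsp1beta* and *Lsp1gamma* of the fat body, which fell with fasting in both genotypes and were higher in mutants in both diets. *Lsp1gamma* averaged 14920 RPM in control fed, 627 in control fasted, 51301 in mutant fed and 11885 RPM in mutant fasted larvae.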

How the data were processed

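The authors trimmed reads with Trimmomatic, mapped them with TopHat2 2.1.0 to FlyBase release 6, counted them strand-specifically on exons with HTSeq 2.7.6 (version as in the submitters' notes), removed genes with very low counts and ran limma. The values per library that the authors deposited are a linear signal, scaled to the effective (TMM) library size. All 16 libraries were used and no column of sample values was left unused. Within each library 100% of values were whole multiples of 1 read (tolerance 0.001), so read numbers were recovered. Columns of the authors' own comparisons (mean log2 level, log2 fold changes, t and F statistics, p-values) were not used.

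Tests used limma 3.58.1 (R 4.3.3). Values were transformed to log2(RPM + 1), 1 model with a mean for each of the 4 groups was fitted to the 16 libraries, and p-values were adjusted by Benjamini-Hochberg across 10459 genes, with calls below 0.05. No further filter on low values was applied, and all 9 measured genes entered every fit. The design assumed normalized values on a log scale, as found. Alternatives were a pseudocount of 0.1, quantile normalization, centring each library on its median, leaving out genes under the 25th percentile, fitting only the groups compared, the replicate number as a block, eBayes with trend and robust settings, a threshold of 0.01, a threshold of 0.05 joined to an absolute log2 difference over 0.5, leaving out each library, and, on recovered reads, edgeR 4.0.16 (quasi-likelihood) and DESeq2 1.42.0. The script was tested on simulated counts with 1 setting of the spread for all genes and groups, and with changes only in genes above the median level. That run does not check weakly expressed genes or groups of unequal spread. The members and gene lists were chosen with earlier results of these data known. All listed members were named. From each list up to 3 called genes with the largest absolute fold change per comparison could be named, together with the most similar profile for each member. Positions and exon lengths come from a later release 6 annotation, which held 10305 of the 10459 genes. Same-numbered libraries of different groups did not deviate together (16 pairs, r from -0.324 to 0.291, 5 over 0.1), so they were not paired.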

Additional observations from a re-analysis of the deposited data

Results flagged for a closer look

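Among 36 groups of 4 libraries tested for a library far from the rest (9 genes in 4 groups), 3 held one, where chance gives about 1 in 20. *Eip75B* reached 102 RPM in control fasted replicate 3, while the other 3 libraries held 40.4 to 49.9 RPM. *Hr39* stood at 49.5 RPM in mutant fed replicate 3, below 52.3 to 52.8 RPM in the others. *Eip71CD* stood at 21.9 RPM in control fed replicate 2, above 14.0 to 14.7 RPM in the others.

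The fasting responses of mutants and controls differed for 5 of the 9 genes in limma's interaction test, beside 31.9% of all genes. The difference of the log2 responses, mutants minus controls, was -2.70 for *Eip74EF*, -1.40 for *Hr4*, -0.90 for *Eip75B*, -0.72 for *EcR* and -0.60 for *br*. The call of *Hr4* was lost with a pseudocount of 0.1, with quantile normalization, in edgeR (adjusted p = 0.18) and in DESeq2 (adjusted p = 0.157). For *br* both genotypes fell and the mutants fell further.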

How the results depend on the processing

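Of 386 values of single genes recomputed under other settings, 358 kept their direction and their side of the threshold, 13 lost the call, 13 gained one and 2 changed sign. Leaving out 1 library gave 432 values, of which 387 kept both, 32 lost the call, 9 gained one and 4 changed sign. Those that changed sign were small and never called: *Hr39* with fasting in controls was 0.043 under quantile normalization, and for mutants against controls in fed larvae *Eip78C* was 0.030 with each library centred on its median and -0.088 to 0.033 without 1 library, and *ftz-f1* was -0.0054 to 0.20 without 1 library. In fed larvae 6 of the 9 genes were called between genotypes when only these groups were fitted, instead of 3. Over all genes that fit called 5655 of 10459, instead of 5390. For the interaction 1 gene was called at a threshold of 0.01 instead of 5, and calls over all genes were not counted at 0.01. Without 1 library 3 to 7 of the 9 genes were called (3 without control fed or mutant fed replicate 2, 7 without control fasted replicate 1). Over all 10459 genes these 3 fits called 2940, 2941 and 3447, against 3338 with all libraries. Leaving out 1 library gave 7 to 8 called genes for fasting in controls and 4 to 6 for fasting in mutants. For genotype it gave 2 to 3 in fed and 4 to 7 in fasted larvae. Over all 10459 genes these fits called 6606 to 7370, 4624 to 4817, 4809 to 5183 and 3397 to 4931, in the same order. With the replicate number as a block 7, 5, 2, 6 and 5 genes were called in the 5 comparisons. Without it the counts were 8, 5, 3, 6 and 5. Over all 10459 genes the fit with the block called 7199, 5081, 5366, 4535 and 3241. The calls lost were *EcR* with fasting in controls (adjusted p = 0.0576) and *Eip74EF* between fed genotypes (adjusted p = 0.0606). The interaction of *Hr4* was not called with a pseudocount of 0.1, with quantile normalization or on recovered reads (adjusted p = 0.0728 to 0.18), and with that pseudocount its fasting change in mutants was 2.61 instead of 0.87. *Hr4* and *Eip78C*, with 3 to 17 reads in fed libraries, fell below the 25th percentile filter. Depth limits the precision of these 2 genes most. Counts for the lists also moved. Of the 15 other ecdysone-inducible genes 3 instead of 9 had a called interaction at a threshold of 0.01. At that threshold, with all genes again not counted, 4 instead of 9 differed between fasted genotypes, and 3 instead of 7 between fed genotypes. With the percentile filter 5 had a called interaction, beside 3018 of the 7844 genes kept. That filter also left weakly expressed genes of the list, such as *ImpE3*, out of the fit, so the 5 are not out of 15. Of the 8 synthesis genes 5 instead of 2 differed between fasted genotypes with each library centred on its median and 4 in edgeR. Over all 10459 genes these settings called 4703 and 4305, against 4678.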
